A study of Zea mays with 2 samples.

Results

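The transcripts described here are those of the maize mitochondrial genome, taken as every feature of the deposited matrices whose gene ID begins with ZeamM. They numbered 208 of 46430 features, and all 208 IDs matched a locus tag of the RefSeq table, which gave their symbols. Single-cell libraries had been made from leaf protoplasts of the maize inbred line B73, without any treatment or mutant. Each of the 2 libraries came from a pool of 6 V2 seedlings, from the distal 6 cm of leaf 2, and the plants of the second library were grown at a different time. Protoplasting favours mesophyll (MS) cells, so that the bundle sheath (BS) groups were small.

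Barcodes were put in a class by 4 nuclear marker genes. BS barcodes had at least 10 unique molecular identifiers (UMIs, counted cDNA molecules) from ME1 (Zm00001d000316) and RBCS1 (Zm00001d052595) together, and more of these than of PEP1 (Zm00001d046170) and CAH1 (Zm00001d044099), and MS barcodes the reverse. Within each type, barcodes with at most 1800 detected genes were called low-gene and those with more were called kept. There were 170 and 46 BS low-gene barcodes in library 1 and library 2, 78 and 30 BS kept barcodes, 2134 and 1873 MS low-gene barcodes, and 4184 and 3348 MS kept barcodes. Marker genes outside the rule were checked in each class. RBCS2 and PCK1, which belong to BS cells, summed to 18701 and 27870 CPM (UMIs scaled to a class total of 1000000) in BS kept barcodes, against 47.8 and 33.7 CPM in MS kept barcodes. MDH6, an MS gene, was at 94.2 and 18.1 CPM in BS kept barcodes, against 2176 and 2421 CPM in MS kept barcodes. In low-gene barcodes the types were less apart. RBCS2 and PCK1 summed to 15731 and 22705 CPM in BS low-gene barcodes, against 333 and 60.0 CPM in MS low-gene barcodes, and MDH6 was at 205 and 143 CPM in BS low-gene barcodes, against 1450 and 1740 CPM in MS low-gene barcodes. PEP1 and CAH1, which the rule used, summed to 2133 and 1582 CPM in BS low-gene barcodes, against 453 and 104 CPM in BS kept barcodes, and the part of this in the low-gene comparisons was not tested. Of all barcodes, 11 sequences occurred in both libraries.

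As background, the plant mitochondrial genome encodes a small part of the respiratory machinery. It holds subunits of complexes I, III and IV (nad, cob and cox genes) and of ATP synthase (atp), factors that mature cytochrome c (ccm), ribosomal proteins (rps, rpl), a maturase (mat-r), ribosomal RNAs (rrn), transfer RNAs (trn) and many open reading frames named by their length (orf). Stretches of chloroplast DNA have also moved into it, and their genes carry the suffix -ct. Plant mitochondrial transcripts mostly lack a stable poly(A) tail, while the libraries were primed on runs of A, so that UMI counts rank what was captured, not transcript abundance. In NADP-ME type C4 leaves such as maize, MS cells fix CO2 with PEP carboxylase and BS cells run the Calvin cycle.

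Which mitochondrial features were captured was examined first. Mitochondrial features drew 171807 of 88081896 UMIs in library 1 (0.195%) and 104934 of 41924567 UMIs in library 2 (0.250%). At least 1 UMI was found for 95 of the 208 features, 73 of them in both libraries, and 113 features were at 0 in every barcode. A count of 0 allowed up to 0.0341 CPM in library 1 and 0.0716 CPM in library 2, taking 3 counts as the limit, which covers counting error only. All 29 transfer RNA features, 8 of them pseudogenes, were at 0. Of the 32 features that belong to numbered copies, 31 were at 0, and atp1-a1, a copy of the gene for an ATP synthase subunit, had 4 UMIs. Reads that match more than 1 gene are not counted by Cell Ranger, so the level of such copies cannot be read from these counts. All 9 ribosomal protein features, all 4 ccm features, all 3 cox features, cob and mat-r were detected, as were 5 of 6 nad features. The exception among these was nad7, a complex I subunit gene, which had no UMI. Among the other open reading frames 51 of 128 were detected, and among the -ct features 13 of 28.

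The mitochondrial UMIs were concentrated in a few features. In the mean of both libraries, rrn26, the large ribosomal RNA, took 29.7% of the mitochondrial UMIs of classified barcodes. It was followed by orf99-d with 20.0% and orf121-a-ct with 19.0%, both open reading frames to which no role is given here. The order depended on the class. In BS kept barcodes orf99-d led in both libraries, with 30.1% and 47.9%, before rrn26 with 20.4% and 21.6%. In MS kept barcodes rrn26 led in library 1 (28.2%, before orf99-d with 17.9%), and orf99-d in library 2 (29.2%, before rrn26 with 22.6%). In low-gene barcodes rrn26 led in both types and libraries. Over all classified barcodes orf121-a-ct had rank 2 in library 1 and rank 3 in library 2. The top 3 features summed to 68.6%, the top 8 to 91.8% and the top 20 to 98.2%. Ranks 4 to 9 were held by orf247-ct (5.62%), rps12-ct (5.38%), rps1 (4.76%), rrn18 (3.85%), rpl2-ct (3.58%) and ccmFN (1.56%). Here rps1 encodes a ribosomal protein, rrn18 is the small ribosomal RNA, and ccmFN encodes a factor of cytochrome c maturation. The same 20 features led in both libraries, and across the 95 detected features the shares of the libraries had a Spearman rho of 0.93, given as a description. In RefSeq order orf121-a-ct lies beside nad4, orf99-d between trnF-ct and trnR-a, and rps1 beside ccmFN. Reads of a transcript that runs on past its gene can be counted for such a neighbour, which was not tested.

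Genes of the respiratory chain were low in the ranking. The most counted were atp9 (rank 10, 0.724%), cox1 (rank 13, 0.543%), cox3 (rank 14, 0.488%), atp6 (rank 15, 0.486%), atp4 (rank 17, 0.286%) and cob (rank 18, 0.265%). Together the nad features had 1051 UMIs over both libraries, 0.380% of the mitochondrial UMIs, against 3221 UMIs (1.16%) for the cox features and 4711 UMIs (1.70%) for the atp features. Of the ribosomal RNAs, rrn26 had 87309 UMIs, rrn18 had 10380 and rrn5 had 127, and the chloroplast-derived rrn16-ct had 1419. Divided by gene length in the RefSeq table, an alternative chosen after the data were seen, the order changed. Over both libraries orf99-d then led with 163417 UMIs per kilobase, before orf121-a-ct (142530), rps1 (26775), rrn26 (24580) and orf247-ct (21121).

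**Figure D1:**
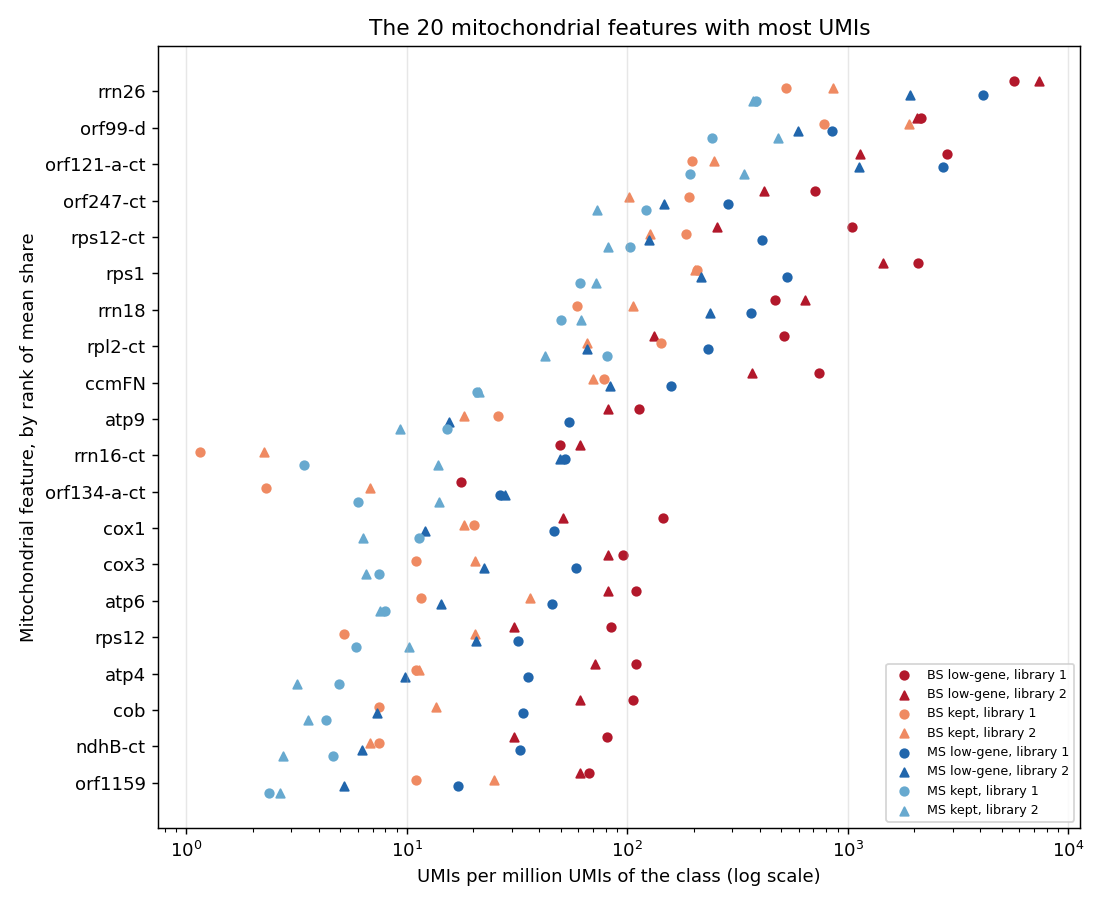
CPM of the 20 most counted mitochondrial features (rows, by rank) in each class, on a log axis, with circles for library 1 and triangles for library 2. In both libraries the 2 BS low-gene points of rrn26 (5686 and 7340 CPM) lie farthest to the right, and a feature with 0 UMIs in a class (orf134-a-ct in BS low-gene barcodes of library 2) has no point there.

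Several features of the top 20 overlap others by the coordinates of the RefSeq table, whose build is not the one that reads were aligned to. The pair orf247-ct and rpl2-ct overlap each other, rrn18 overlaps orf111-b, orf1159 overlaps orf115-d, and atp4 overlaps trnR-a, so that their counts are uncertain where reads could be split or dropped. The -ct features were set beside the chloroplast features of the same symbol. The mitochondrial rpl2-ct, for a ribosomal protein, had 29 to 6623 UMIs in the 4 kept sums, whereas both chloroplast rpl2 features together had 0 or 1 UMI in every sum. For rbcL-ct, a copy of the gene for the large subunit of Rubisco, BS kept barcodes held 38 and 14 UMIs and MS kept barcodes 27 and 7. The chloroplast rbcL feature had 1 UMI in all barcodes of both libraries. Of the 40 chloroplast features that share a symbol with another, 39 were at 0. Whether UMIs of -ct features come from mitochondrial or chloroplast transcripts cannot be told apart with these counts, so the results on shares are given with and without them.

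Whether BS and MS barcodes differ in their mitochondrial share was asked next. In kept barcodes mitochondrial features took 0.259% of the summed UMIs of BS barcodes of library 1 (exact 95% binomial interval 0.251 to 0.267%), against 0.136% in MS barcodes (0.135 to 0.136%). In library 2 the share was 0.398% in BS kept barcodes (0.379 to 0.417%) and 0.165% in MS kept barcodes (0.164 to 0.167%). The BS share was 1.91 and 2.41 times the MS share in the 2 libraries. Over libraries the means were 0.328% ± 0.098 in BS kept barcodes and 0.150% ± 0.0209 in MS kept barcodes (SD, n = 2 each). The libraries of the groups did not overlap, and no test was run on these shares, since 2 libraries against 2 cannot reach p = 0.05 in an exact permutation test.

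Low-gene barcodes showed the same order of types. The share was 1.80% and 1.48% in BS low-gene barcodes, against 1.02% and 0.478% in MS low-gene barcodes, which is 1.76 and 3.09 times as much. The means were 1.64% ± 0.228 in BS low-gene barcodes and 0.751% ± 0.386 in MS low-gene barcodes (SD, n = 2 each). BS low-gene barcodes held fewer detected genes, with a median of 574.5 and 815.5, against 700 and 1270 in MS low-gene barcodes. Without the -ct features, the BS share was 2.18 and 3.12 times the MS share in kept barcodes and 1.95 and 3.93 times in low-gene barcodes. Without -ct and ribosomal RNA features, it was 3.06 and 3.73 times the MS share in kept barcodes and 3.22 and 4.45 times in low-gene barcodes. The chloroplast share moved in the same direction, at 2.77% and 2.21% in BS kept barcodes against 1.95% and 1.34% in MS kept barcodes, and at 11.7% and 4.06% in BS low-gene barcodes against 5.81% and 1.73% in MS low-gene barcodes. Its part in the mitochondrial result was not tested.

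**Figure D2:**
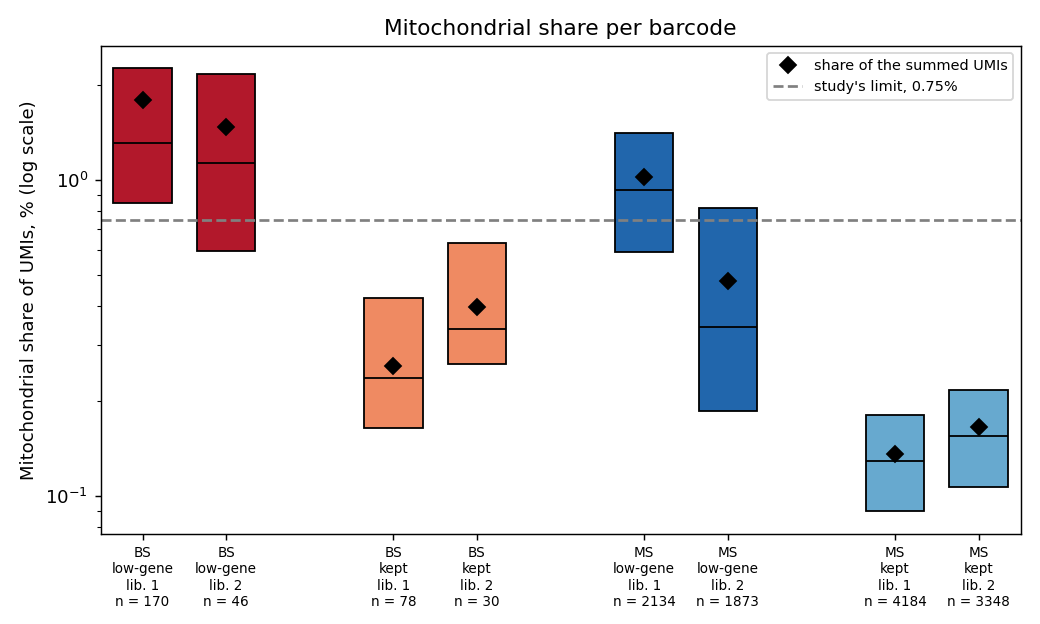
Mitochondrial share of UMIs per barcode, in percent on a log axis, for each class and library, with boxes from the first to the last quartile, a line at the median and a diamond at the share of the summed UMIs. Medians of BS kept barcodes (0.237% and 0.338%) lie above those of MS kept barcodes (0.129% and 0.155%), and both lie under the dashed line at 0.75%, the limit that the study set.

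The difference between types was then read at matched numbers of detected genes. In every bin above 500 genes in which both types had barcodes, the BS share was the higher. Among barcodes with over 1000 and up to 1800 genes it was 1.82% in 40 BS barcodes (1.75 to 1.89%) and 0.812% in 571 MS barcodes (0.799 to 0.825%) of library 1. In library 2 it was 1.44% in 20 BS barcodes (1.35 to 1.53%) and 0.370% in 1269 MS barcodes (0.365 to 0.376%). Over 1800 and up to 3000 genes it was 0.848% and 0.520% in 18 and 17 BS barcodes, against 0.255% and 0.18% in 692 and 2254 MS barcodes. Over 3000 and up to 5000 genes it was 0.254% and 0.322% in BS barcodes, against 0.136% and 0.149% in MS barcodes. The order was turned round at the low end. Up to 500 genes the share was 1.18% in BS barcodes (1.08 to 1.29%) and 1.31% in MS barcodes (1.27 to 1.35%) of library 1, and 0.796% in only 8 BS barcodes (0.584 to 1.06%) and 1.47% in 91 MS barcodes (1.38 to 1.57%) of library 2. Without -ct features the order in every bin was as it was with them. Over 1000 and up to 1800 genes the share was then 1.34% and 1.24% in BS barcodes, against 0.536% and 0.243% in MS barcodes, and up to 500 genes 0.613% and 0.658% in BS barcodes, against 0.765% and 1.08% in MS barcodes. The intervals cover counting error only and not the spread between barcodes.

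**Figure D3:**
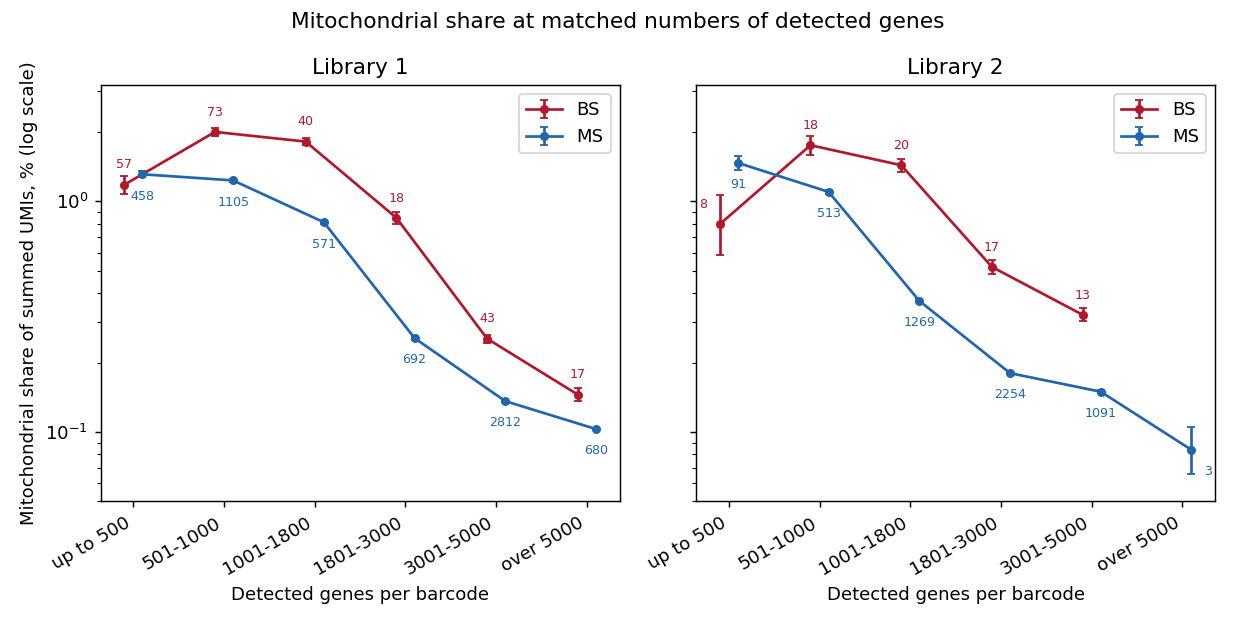
Mitochondrial share of the summed UMIs, in percent on a log axis, by bins of detected genes per barcode in each library, with BS in red, MS in blue, bars for exact 95% binomial intervals and small numerals for the number of barcodes. BS lies above MS in every bin over 500 genes that holds both types, and below it up to 500 genes.

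The study removed barcodes with a mitochondrial share of 0.75% or more, and that limit took different parts of the classes. It was reached by 12 of 78 BS kept barcodes of library 1 (15.4%, exact interval 8.21 to 25.3%) and 21 of 4184 MS kept barcodes (0.502%, 0.311 to 0.766%). In library 2 it was reached by 4 of 30 BS kept barcodes (13.3%, 3.76 to 30.7%) and 13 of 3348 MS kept barcodes (0.388%, 0.207 to 0.663%). The intervals of the types did not overlap in either library. They treat barcodes as independent and do not cover the spread between pools of plants, so that this is a description and no test. Without -ct features the limit was reached by 6 of 78 BS kept barcodes (7.69%, 2.88 to 16.0%) and 9 of 4184 MS kept barcodes (0.215%, 0.0984 to 0.408%) of library 1. In library 2 it was then reached by 1 of 30 BS kept barcodes (3.33%, 0.0844 to 17.2%) and 9 of 3348 MS kept barcodes (0.269%, 0.123 to 0.510%), and the intervals overlapped. Among low-gene barcodes the limit was reached by 79.4% and 67.4% of BS barcodes, against 63.1% and 26.3% of MS barcodes, and without -ct features by 50.6% and 54.3% of BS barcodes, against 29.2% and 18.4% of MS barcodes.

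Fits of single features used UMI sums of each class and library, with edgeR's quasi-likelihood test, a term for library and Benjamini-Hochberg adjustment over all genes tested. Between BS kept and MS kept barcodes, 44 of the 208 features passed the filter on low counts. In BS kept barcodes 13 of these were higher and 0 lower at an adjusted p under 0.05 (23 had an unadjusted p under 0.05). Over all 16661 genes tested 9.91% were higher and 12.1% lower. The filter asked for 0.55 CPM in at least 2 of the 4 sums. Of the 44 features 37 reached it in both MS sums, and 12 of these were called, with a median log2 fold change of 1.09 as a description, beside −0.17 over all genes. Another 6, rbcL-ct among them, passed only through the BS sums, where they are high, and had to differ. By list, the called features were 2 of 5 tested ribosomal protein features (rps1 and rps2A), 2 of 4 ccm features (ccmFN and ccmB), 1 of 4 atp features (atp6) and 1 of 2 ribosomal RNAs (rrn26). The rest were 6 of 10 open reading frames and 1 of 10 -ct features, and none of the 4 nad and 3 cox features, cob and mat-r was called.

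The best counted of these in BS kept barcodes was orf99-d (ZeamMp050), with 779 and 1905 CPM there, against 243 and 482 CPM in MS kept barcodes. Its log2 fold change was 1.84 ± 0.29 (SE, edgeR adjusted p = 7.21e-09). Both BS libraries lay above both MS libraries, and library 2 was the higher in each type. The ribosomal protein gene rps1 (ZeamMp097) had 208 and 204 CPM in BS kept barcodes, against 61.4 and 71.9 CPM in MS kept barcodes, so that it rose by 1.64 ± 0.34 on the log2 scale (edgeR adjusted p = 1.52e-05). Its neighbour ccmFN (ZeamMp098) had 78.6 and 70.1 CPM in BS kept barcodes, against 20.8 and 21.3 CPM in MS kept barcodes (log2 fold change 1.84 ± 0.37, edgeR adjusted p = 8.23e-06). For both genes each BS library lay above both MS libraries. The most loaded barcode held 16.9% and 16.1% of the BS kept UMIs of ccmFN. The large ribosomal RNA rrn26 (ZeamMr002) was higher by less, with 528 and 860 CPM in BS kept barcodes, against 383 and 373 CPM in MS kept barcodes (log2 fold change 0.84 ± 0.30, edgeR adjusted p = 0.0242).

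The most unequal feature was rbcL-ct (ZeamMp134), at 22.0 and 31.7 CPM in BS kept barcodes, against 0.331 and 0.202 CPM in MS kept barcodes. Its log2 fold change was 6.48 ± 0.59 (edgeR adjusted p = 4.29e-26). As said above, it passed the filter only through the BS sums, where it is high, so that this call is no support. For atp6 (ZeamMp182), an ATP synthase subunit gene, the values were 11.6 and 36.2 CPM in BS kept barcodes, against 8.01 and 7.60 CPM in MS kept barcodes (log2 fold change 1.33 ± 0.46, edgeR adjusted p = 0.0220). The atp6 ratio was 1.44 in library 1 and 4.76 in library 2. The open reading frame orf1159 (ZeamMp088) had 11.0 and 24.9 CPM in BS kept barcodes, against 2.37 and 2.66 CPM in MS kept barcodes (log2 fold change 2.66 ± 0.54, edgeR adjusted p = 1.31e-05). The other called features rested on few BS molecules. They were orf140-b (16 and 4 UMIs in BS kept barcodes), orf101-a (16 and 1), orf99-c (14 and 1), orf911 (12 and 2), rps2A (7 and 5) and ccmB (5 and 3), with log2 fold changes of 2.16 to 3.04.

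Features that were not called included the third in rank. The values of orf121-a-ct (ZeamMp030) were 196 and 247 CPM in BS kept barcodes, against 192 and 339 CPM in MS kept barcodes, and the fitted log2 ratio was −0.20 ± 0.31 (edgeR adjusted p = 0.741). Groups overlapped for it. The respiratory genes cox1, cox3 and cob had log2 fold changes of 1.00 to 1.24 with edgeR adjusted p of 0.0747 to 0.154, and atp4 and atp9 of 1.40 and 0.86 (0.0603 and 0.153). The chloroplast-derived ribosomal RNA rrn16-ct (ZeamMr001) had 2 and 1 UMIs in BS kept barcodes, against 279 and 480 in MS kept barcodes, or 1.16 and 2.26 CPM against 3.42 and 13.9 CPM (log2 fold change −2.0 ± 0.86, edgeR adjusted p = 0.0814). No UMI of nad4 was seen in BS kept barcodes, which allowed up to 1.73 and 6.79 CPM, and MS kept barcodes were at 1.12 and 0.751 CPM, so that no difference was detectable at this depth. The same held for rrn5 (ZeamMr003), the smallest ribosomal RNA, with 0 UMIs in BS kept barcodes and 0.429 and 1.59 CPM in MS kept barcodes.

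**Figure D4:**
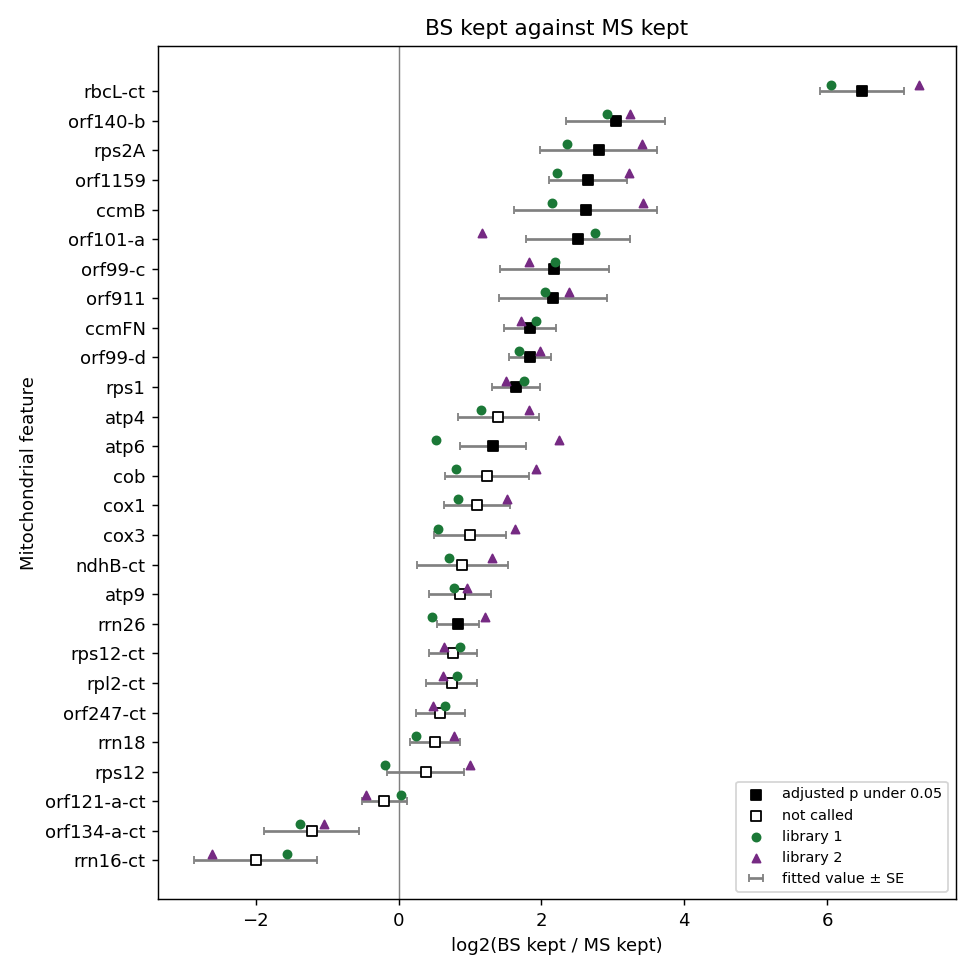
log2 ratios of BS kept to MS kept barcodes (horizontal axis) for the top 20 and all called mitochondrial features, with squares for the fitted value and its SE (filled where the adjusted p was under 0.05), circles for library 1 and triangles for library 2. The called features run from rrn26 at 0.84 to rbcL-ct at 6.48, and orf121-a-ct, orf134-a-ct and rrn16-ct have fitted values under 0.

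The number of calls moved by over 1.5 times under 4 other settings. The study's whole filter also removes barcodes by their mitochondrial share and left 55 and 25 BS kept barcodes. Under it 4 of 41 tested features were called (rbcL-ct, orf99-d, rps2A and rps1), and the log2 fold change of rps1 was 0.98. Over all genes 3396 of 16481 were then called in either direction. DESeq2 called 7 of 44 features and 2341 of 16661 genes. A minimum of 10 UMIs in each sum left 11 features to test and 5 called, against 1882 of 4166 genes. The fit without the library term called 8 of 44 features and 1885 of 16661 genes. These gene counts are not split by direction, so no excess of mitochondrial calls can be read from them.

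Among low-gene barcodes the same question gave 15 features higher in BS and 0 lower, of 36 tested (30 with an unadjusted p under 0.05), while over 10997 genes 4.74% were higher and 4.19% lower. Here the filter stood at 5.05 CPM. Of the 36 features 21 reached it in both MS sums, and 8 of these were called, with a median log2 fold change of 1.48, beside −0.27 over all genes. Another 13 passed only through the BS sums, where they are high, and 7 of these were called (atp8, cox2, orf101-a, orf140-b, orf911, rbcL-ct and rps2A). These 7 had to differ, so that their calls are no support. With them included, the calls were atp4, atp6 and atp8 of the ATP synthase, cob of complex III, and cox1 and cox2 of complex IV. The rest were rps1, rps2A, ccmFN, 5 open reading frames and rbcL-ct. In BS low-gene barcodes rps1 was at 2094 and 1440 CPM, against 531 and 216 CPM in MS low-gene barcodes (log2 fold change 2.27 ± 0.53, edgeR adjusted p = 0.000504). The apocytochrome b gene cob was at 106 and 61.3 CPM in BS low-gene barcodes, against 33.7 and 7.32 CPM in MS low-gene barcodes (log2 fold change 2.14 ± 0.59, edgeR adjusted p = 0.00591). For both genes each BS library lay above both MS libraries, although cob rested on 30 and 6 UMIs in BS low-gene barcodes. Here orf99-d was not called, at 2154 and 2062 CPM in BS low-gene barcodes against 853 and 593 CPM in MS low-gene barcodes (log2 fold change 1.48 ± 0.52, edgeR adjusted p = 0.0525). Neither was rrn26, at 5686 and 7340 CPM against 4097 and 1928 CPM (1.11 ± 0.58, adjusted p = 0.263). Of the called features 9 were called in kept barcodes as well, which is 60.0% of the low-gene list and 69.2% of the kept list. The overlap over all genes is not given here, so that no agreement particular to mitochondrial features can be read from these shares. Among the 9, rbcL-ct, orf101-a, orf140-b, orf911 and rps2A passed the low-gene filter only through the BS sums. DESeq2 called 9 of 36 features, and 619 of 10997 genes in either direction. A minimum of 10 UMIs in each sum left 9 features to test and 6 called, against 613 of 1382 genes.

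Low-gene and kept barcodes of the same type were compared next. The mitochondrial share of MS low-gene barcodes was 7.55 and 2.90 times that of MS kept barcodes, and that of BS low-gene barcodes 6.95 and 3.72 times that of BS kept barcodes. Without -ct features these ratios were 7.71 and 2.98 in MS and 6.91 and 3.75 in BS. Without -ct and ribosomal RNA features they were smaller, at 4.96 and 1.63 in MS and 5.23 and 1.95 in BS. The number of mitochondrial UMIs per barcode went the other way. MS low-gene barcodes held 17.6 and 14.3 of them on average, against 26.4 and 17.1 in MS kept barcodes, and BS low-gene barcodes 30.0 and 31.5, against 57.5 and 58.6 in BS kept barcodes. A higher share can thus stand for more mitochondrial or for less other RNA, which cannot be told apart from shares. Median total UMIs were 1309 and 2928 in MS low-gene barcodes against 18610 and 9397 in MS kept barcodes, and 986.5 and 1818 in BS low-gene barcodes against 19935 and 12584 in BS kept barcodes. The chloroplast share of MS low-gene barcodes was 2.98 and 1.29 times that of MS kept barcodes, and that of BS low-gene barcodes 4.24 and 1.84 times that of BS kept barcodes.

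By feature, 40 of 49 tested features were higher and 0 lower in MS low-gene than in MS kept barcodes, while over 17238 genes 5.73% were higher and 0.743% lower. Of these 37 reached the filter of 0.497 CPM in both MS kept sums, and 32 of them were called, with a median log2 fold change of 1.86, beside −0.05 over all genes. Another 11 passed only through the low-gene sums, where they are high, so that the calls of 8 of them are no support. All 4 atp, all 4 ccm, all 3 cox and all 6 ribosomal protein features tested rose, as did cob, mat-r and 3 of 5 nad features. Of these, ccmC, rps3, rps7 and rpl16 passed the filter only through the low-gene sums and had to differ. The largest called value of a respiratory gene was that of cox2 (2.47 ± 0.47, edgeR adjusted p = 4.10e-05). In MS low-gene barcodes rrn26 was at 4097 and 1928 CPM, against 383 and 373 CPM in MS kept barcodes (log2 fold change 2.78 ± 0.47, edgeR adjusted p = 1.55e-06). The third-ranked orf121-a-ct was at 2704 and 1131 CPM in MS low-gene barcodes, against 192 and 339 CPM in MS kept barcodes (2.66 ± 0.47, edgeR adjusted p = 4.98e-06). A single barcode held 7.98% of its MS low-gene UMIs in library 2. Not called was orf99-d, at 853 and 593 CPM in MS low-gene barcodes against 243 and 482 CPM in MS kept barcodes (0.94 ± 0.42, edgeR adjusted p = 0.157).

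In BS low-gene barcodes 21 of 23 tested features were higher and 0 lower than in BS kept barcodes, where over 4219 genes 13.5% were higher and 10.8% lower. The filter stood at 27.6 CPM, and 14 of the 23 features passed it only through the low-gene sums, where they are high, so that their 13 calls are no support. The other 9 reached it in both BS kept sums, and 8 of these were called. They were rrn26, rrn18, rps1, ccmFN and the chloroplast-derived orf121-a-ct, orf247-ct, rps12-ct and rpl2-ct. The 2 features not called were rbcL-ct (1.30 ± 0.56, edgeR adjusted p = 0.0884) and orf99-d (0.83 ± 0.38, edgeR adjusted p = 0.108). In BS low-gene barcodes rrn26 was at 5686 and 7340 CPM, against 528 and 860 CPM in BS kept barcodes (log2 fold change 3.29 ± 0.39, edgeR adjusted p = 2.29e-06). Likewise rps1 was at 2094 and 1440 CPM, against 208 and 204 CPM in BS kept barcodes (3.13 ± 0.35, edgeR adjusted p = 1.31e-06). Both comparisons of low-gene with kept barcodes rest on the pairing of sums within a library. Without the library term edgeR called 0 features in MS (39 with an unadjusted p under 0.05) and 0 in BS (21 unadjusted). It then called none of the 17238 and 4219 genes tested, so this loss is not particular to mitochondrial features. DESeq2 with the term called 20 and 14 features, against 288 of 17238 and 252 of 4219 genes in either direction. With at least 20 marker UMIs 20 of 46 features were called in MS, against 326 of 16848 genes. A minimum of 10 UMIs in each sum left 9 features to test and 8 called in BS, against 543 of 1390 genes.

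Whether the low-gene difference was unlike in the types was tested by an interaction over all 8 sums. None of the 41 features tested was called by edgeR (4 had an unadjusted p under 0.05), while over 13200 genes 0.333% were called. The 4 with an unadjusted p under 0.05 were nad4 and nad4L (no UMI of either in BS kept barcodes, so that no size is given), rbcL-ct (−2.25) and rrn16-ct (2.19, on 2 and 1 UMIs in BS kept barcodes), with edgeR adjusted p of 0.612 to 0.841.

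The make-up of the mitochondrial UMIs differed between classes. Ribosomal RNAs took 34.2% and 54.0% of them in BS low-gene barcodes, against 22.7% and 24.3% in BS kept barcodes, and 43.6% and 45.3% in MS low-gene barcodes, against 32.0% and 26.4% in MS kept barcodes. In contrast orf99-d took 12% and 14.0% in BS low-gene barcodes, against 30.1% and 47.9% in BS kept barcodes, and 8.33% and 12.4% in MS low-gene barcodes, against 17.9% and 29.2% in MS kept barcodes. The -ct features took 29.1% and 15.0% in BS kept barcodes, against 37.9% and 34.4% in MS kept barcodes, and 29.5% and 14.1% in BS low-gene barcodes, against 36.6% and 32.6% in MS low-gene barcodes. These shares carry no test.

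**Figure D5:**
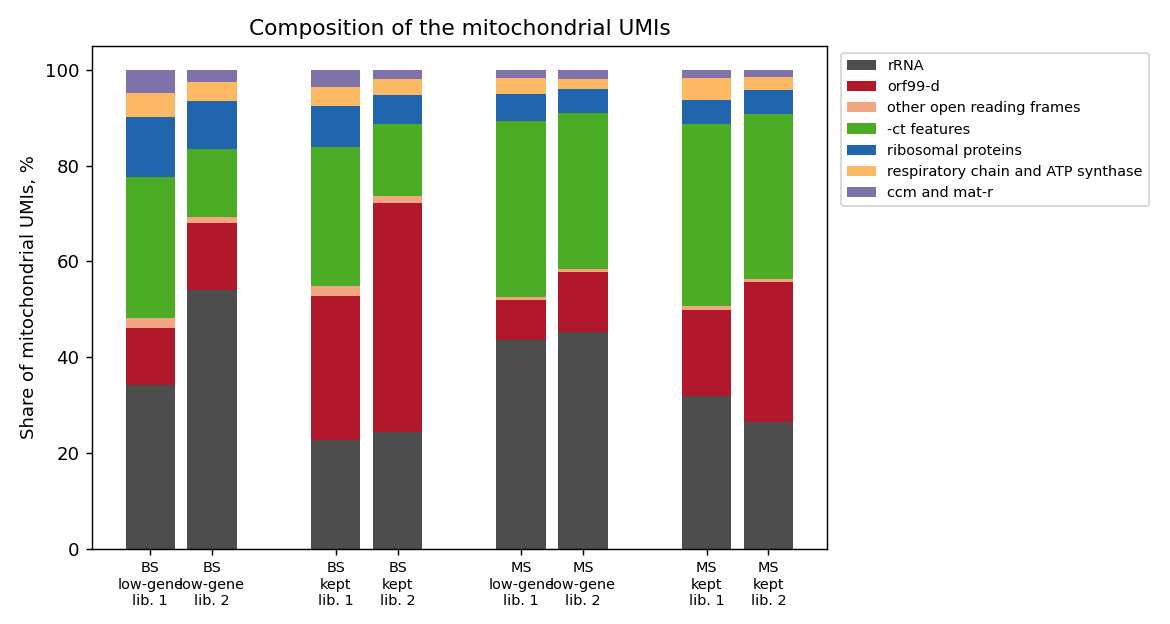
Share of the mitochondrial UMIs, in percent, by group of features in each class and library (stacked bars, summing to 100). The orf99-d part is smaller in low-gene than in kept barcodes of the same type and library, and the rRNA part is larger.

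To set barcodes of unlike depth side by side, each was thinned to 1000 UMIs, which left out 86 and 10 BS low-gene and 733 and 171 MS low-gene barcodes. A UMI of orf99-d was then present in 50% and 76.7% of BS kept barcodes, against 21.4% and 36.0% of MS kept barcodes (unthinned 100% and 100%, against 95.5% and 91.3%). A UMI of rps1 was present in 19.2% and 26.7% of BS kept barcodes, against 6.50% and 8.39% of MS kept barcodes (unthinned 91.0% and 86.7%, against 63.1% and 49.2%). For orf121-a-ct the thinned shares were 24.4% and 23.3% of BS kept barcodes, against 19.3% and 29.2% of MS kept barcodes. All cells of the leaf hold mitochondria, so that no cell type gives the level of free RNA for these features, and its part was not tested. Across barcodes of a class the mitochondrial and the chloroplast share went together, with Spearman rho of 0.41 to 0.83 in the 8 class and library groups (30 to 4184 barcodes), as a description of shares that have the same total. Without -ct features rho was 0.32 to 0.77.

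Last, 15 nuclear genes of respiration were set beside the mitochondrial features. The study had listed them among the cluster genes of these libraries, so their direction is not independent evidence. Between BS kept and MS kept barcodes 6 were higher and 2 lower, with a median log2 fold change of 0.66, where 9.91% of all genes tested were higher and 12.1% lower. Succinate dehydrogenase1 (Zm00001d018758), a complex II subunit gene, was at 52.0 and 47.5 CPM in BS kept barcodes, against 6.93 and 12.2 CPM in MS kept barcodes (log2 fold change 2.51 ± 0.39, edgeR adjusted p = 3.81e-09). Cytochrome c reductase1 (Zm00001d034528), of complex III, was at 381 and 342 CPM in BS kept barcodes, against 103 and 116 CPM in MS kept barcodes (1.73 ± 0.32, edgeR adjusted p = 1.03e-06). A complex I subunit gene (Zm00001d011136) was lower, at 41.0 and 13.6 CPM in BS kept barcodes, against 65.9 and 60.7 CPM in MS kept barcodes (−1.15 ± 0.40, edgeR adjusted p = 0.0198). Alternative oxidase1 (Zm00001d017727) was called higher on 29 and 2 UMIs in BS kept barcodes, against 22 and 16 in MS kept barcodes (log2 fold change 5.26 ± 0.72, edgeR adjusted p = 8.98e-12). Both MS kept sums of this gene lay under the filter of 0.55 CPM, so that it passed only through the BS sums, where it is high. It had to differ, so that its call, counted among the 6, is no support. Its paralogue alternative oxidase3 (Zm00001d002434) was called lower on 9 and 1 UMIs in BS kept barcodes, against 1967 and 391 in MS kept barcodes (−2.18 ± 0.59, edgeR adjusted p = 0.00179). Among low-gene barcodes 1 of 14 tested genes was higher in BS than in MS and 0 lower, against 4.74% and 4.19% of all genes. Between low-gene and kept barcodes edgeR called none of these genes higher. Of 14 tested in MS 1 was lower, with a median log2 fold change of −0.68, where 0.743% of all genes were lower. Of 9 tested in BS 5 were lower, with a median of −1.38, where 10.8% of all genes were lower.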

How the data were processed

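Protoplasts of both pools were run on the 10x Genomics Chromium platform with Single Cell 3ʹ v3 chemistry. The authors aligned reads to B73 RefGen_v4 with STAR in Cell Ranger (3.1.0 per the file headers) and deposited UMI counts per gene and cell barcode, as filtered matrices. Cell Ranger counts a read only where it is assigned to 1 gene. The study then applied Seurat 3.1 and kept cells with over 1800 and under 7000 genes, under 4% chloroplast and under 0.75% mitochondrial UMIs, which, applied here as stated, leaves 4035 and 3339 of the 7340 and 6104 barcodes. These are more than the cell numbers the study gives for its datasets, so the study's filter as used here need not select the study's own set of cells. No per-sample column was left unused.

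Counts were summed per library and class (8 sums). Python 3.11.15 computed shares and exact (Clopper-Pearson) 95% intervals, which cover counting error only. Fits used edgeR 4.0.16 in R 4.3.3 (TMM scaling, filterByExpr, glmQLFit and glmQLFTest, library term). It was also run on simulated counts with the same spread for every gene and changes only in better counted genes. The outcome is not given here, so this run is no support for calls on few UMIs. DESeq2 1.42.0, an alternative, was not run on simulated counts. The 4 markers counted toward totals but were not tested. With 4 sums a fit, p-values rest largely on a spread shared over genes. Libraries are independent pools of plants, and sums with the same replicate number come from the same library. Deviations of paired sums had correlations of 0.30, 0.27, 0.59 and 0.38 across tested genes (log2 CPM of counts plus 1) in the 4 comparisons, so library was kept as a block. The named features were, by rule, the 20 with the highest mean share, all called features, all ribosomal RNAs, and -ct features and copies by counts. Members and lists were chosen with earlier results of these data known. Symbols, lengths, gene order and overlaps came from the RefSeq table (assembly Zm-B73-REFERENCE-NAM-5.0). Its build differs from the one that reads were aligned to, so overlaps by its coordinates need not hold there. The RefSeq table holds 214 ZeamM locus tags, and the 6 absent from the features were not analysed here. No doublet caller was run. At least 10 UMIs of both marker pairs were found in 10 and 0 BS kept, 140 and 54 MS kept, 5 and 1 BS low-gene and 5 and 5 MS low-gene barcodes. Alternatives covered scaling, tool, low-count filters, the library term, marker minimum and purity, the study's filter, and numerator and denominator of the share.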

Additional observations from a re-analysis of the deposited data

Results flagged for a closer look

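Barcodes in neither class were outside every comparison. In library 1 the 774 such barcodes had 1.59% of their UMIs from mitochondrial features (exact 95% interval 1.57 to 1.62%), and in library 2 the 807 such barcodes had 1.51% (1.49 to 1.54%). Both values lay above the MS low-gene shares of 1.02% and 0.478%. Unclassified barcodes were shallow, with a median of 694 and 1024 UMIs and 449 and 607 detected genes, and the highest single barcode reached 42.6%. This difference was not tested.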

How the results depend on the processing

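No called feature changed direction under any alternative run, and none was called lower. Counts of called features that moved by over 1.5 times were as follows. BS kept against MS kept gave 13, and 7 with DESeq2, 5 with a minimum of 10 UMIs in each sum, 8 with no replicate block and 4 under the study's whole filter. BS low-gene against MS low-gene gave 15, and 9 with DESeq2 and 6 with that minimum. MS low-gene against MS kept gave 40, and 20 with DESeq2, 20 with at least 20 marker UMIs and 0 with no replicate block. BS low-gene against BS kept gave 21, and 8 with that minimum and 0 with no replicate block. With no replicate block no gene at all was called in either comparison of low-gene with kept barcodes. Counts over all genes under these settings are given with each comparison above. The minimum left only 11, 9 and 9 features to test in the comparisons that involve BS, and the other causes were not tested. The replicate block was in the main design because paired sums share a library.

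The mean share of mitochondrial UMIs moved by more than the SD of the libraries as follows. It was 0.106% in MS kept and 0.926% in BS low-gene barcodes without ribosomal RNA features, and 1.23% in BS low-gene barcodes as the median over barcodes. Without -ct features, a setting chosen after the data were seen, it was 0.0963% in MS kept and 1.27% in BS low-gene barcodes. Without -ct and ribosomal RNA features, also chosen then, it was 0.183% in BS kept, 0.0528% in MS kept, 0.562% in BS low-gene and 0.154% in MS low-gene barcodes. With 1 library left out the shares were 0.259 to 0.398% in BS kept, 0.136 to 0.165% in MS kept, 1.48 to 1.80% in BS low-gene and 0.478 to 1.02% in MS low-gene barcodes. Calls could not be tested with 1 library. Scaling by library totals moved the median of all genes by over 0.1 only in MS low-gene against MS kept, to 0.07 from −0.05 on the log2 scale.

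BS sums were the limit of depth. A count of 0 allowed up to 1.73 and 6.79 CPM in BS kept and 10.6 and 30.6 CPM in BS low-gene barcodes, against 0.0368 and 0.0867 CPM in MS kept and 0.816 and 0.535 CPM in MS low-gene barcodes.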
